A study of Mus musculus with 26 samples.

Results

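The genes described here are the Notch ligands Dll1, Dll3, Dll4, Jag1 and Jag2 and the fringe glycosyltransferases Lfng and Mfng, followed through 26 single cells of the mouse retina. They were chosen by name, with every probe set annotated to 1 of them alone, which gave 7 of 18193 measured genes and 12 of 45101 probe sets. The N1-CKO group held 13 cells and the WT group 13 cells, with 1 cell on each Affymetrix expression array. All cells came from mice homozygous for a floxed Notch1 allele on a C57BL/6 background, so the WT cells carried the unrecombined floxed allele too. N1-CKO cells had received plasmids for Cre and for CALNL-GFP, a GFP reporter that Cre switches on, both under the broadly active CAG promoter. WT cells had received CAG:GFP. Retinas were electroporated at postnatal day 0, developed in vivo and were dissociated at postnatal day 3, when green cells were picked by hand. The picked cells could be of any type that takes up the plasmids, and the labels name no animal or litter for a cell. Each group therefore counts as 1 sample, no test between the groups was made, and SDs describe the spread between cells only.

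Notch ligands are membrane proteins that a cell presents to its neighbours. A Delta or Jagged protein binds a Notch receptor on the adjacent cell, is pulled into the presenting cell by endocytosis, and so releases the receptor's intracellular part, which with Rbpj turns on Hes and Hey repressors. In the developing retina, proneural factors turn on Delta genes in cells that start to differentiate, while Hes proteins hold down both proneural and Delta genes in the neighbours that remain progenitors. Fringe enzymes extend sugars on the receptor and change which ligands it answers to.

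The question asked here is which cells carry ligand and fringe transcripts, and whether those cells carry Hes or proneural transcripts as well. Values are MAS5 signals, which are array intensities scaled to the same mean on each array. A transcript was called detected at or above the 90th percentile of its own array, a threshold that lay between 245 and 2164 in N1-CKO cells and between 396 and 2409 in WT cells. Log2 levels are given after raising signals under 25.02 to that value. Each of the 26 cells had at least 1 of the retinal genes Rax, Six3, Six6, Pax6 and Lhx2. Notch1 itself was detected in 8 N1-CKO and 10 WT cells, and no source used here says whether its probes lie within the deleted part.

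At least 1 ligand transcript was detected in 5 of 13 N1-CKO cells (38.5%, exact 95% binomial interval 13.9 to 68.4%) and in 4 of 13 WT cells (30.8%, 9.09 to 61.4%). A fringe transcript was likewise detected in 5 N1-CKO and 4 WT cells, in each case Mfng. The intervals cover counting error only and overlap through most of their range. The counts depend on the detection limit: with the 80th percentile they were 10 N1-CKO and 7 WT ligand cells, and with the 95th percentile 4 and 0. The ligand cells were N1-CKO cells 4, 5, 9, 10 and 11 and WT cells 5, 6, 8 and 9. Dll1 was detected in 6 of the 26 cells, Dll4 in 4, Dll3 in 3, Jag2 in 1 and Jag1 in none.

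**Figure D1:**
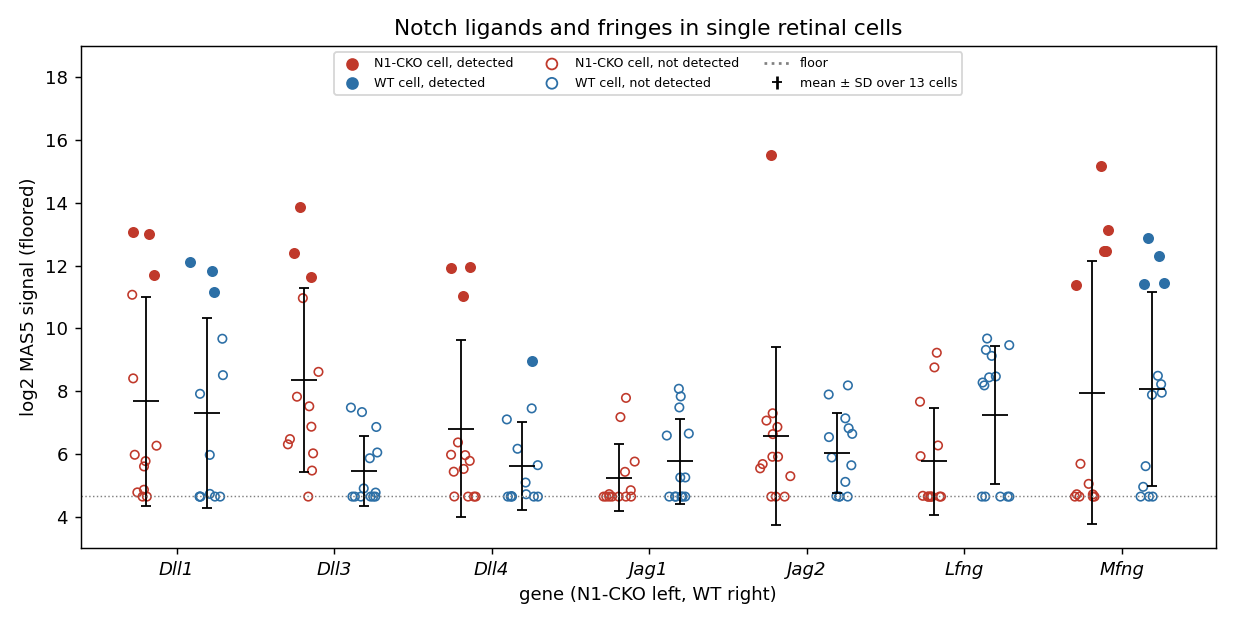
Log2 MAS5 signal (y axis, raised to a floor of 4.65, dotted line) of each ligand and fringe gene (x axis) in 13 N1-CKO cells (left, red) and 13 WT cells (right, blue), with filled points for detected transcripts and bars for mean ± SD over cells. A few bright cells stand above many dim ones for Dll1 and Mfng in both groups and for Dll4 in N1-CKO cells, with 1 filled WT point for Dll4. All 3 detected Dll3 cells are N1-CKO, and no Lfng or Jag1 point is filled.

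Dll1, the main Delta ligand of retinal progenitors and precursors, was detected in equal numbers of cells in the groups. Its signal (probe set 1419204_at) ran between 13.1 and 8698 (median 63.0) in N1-CKO cells and between 7.45 and 4457 (median 62.8) in WT cells. The detected cells were N1-CKO cell 5 at 8698, cell 4 at 8316 and cell 9 at 3316, and WT cell 8 at 4457, cell 5 at 3629 and cell 6 at 2304. Each group thus held 3 bright cells among dim ones, and the ranges overlapped. Mean log2 level was 7.68 ± 3.34 in N1-CKO cells and 7.32 ± 3.02 in WT cells (SD, n = 13 each), a difference of 0.36 that is far smaller than the spread between cells and was -0.09 without N1-CKO cell 5. N1-CKO cell 1, with a signal of 2156 against a threshold of 2164 on its array, fell just short of detection, and WT cell 6 passed by a narrow margin (threshold 2251).

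Dll3, a divergent Delta protein that stays largely inside the cell and does not activate Notch on neighbours, was detected in 3 of 13 N1-CKO cells (23.1%, 5.04 to 53.8%) and in 0 of 13 WT cells (0 to 24.7%). Its signal (1449236_at) ran between 18.5 and 14930 (median 184) in N1-CKO cells and between 5.44 and 179 (median 27.3) in WT cells. The highest N1-CKO signals were 14930 in cell 5, 5466 in cell 9 and 3179 in cell 4. Just under detection were N1-CKO cell 1 (2002, threshold 2164) and cell 8 (393, threshold 396). In all, 7 of 13 N1-CKO cells exceeded the brightest WT cell, and the remaining N1-CKO cells overlapped the WT range. By rank within each array the picture was similar, with 8 N1-CKO cells above the highest WT percentile of 81.3.

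The mean log2 level of Dll3 was 8.36 ± 2.93 in N1-CKO cells and 5.47 ± 1.11 in WT cells (SD, n = 13 each). The difference of 2.88 was the largest among the 7 genes and just under the larger of the SDs. Among 8280 genes detected in at least 2 cells, 19.1% were higher in N1-CKO cells by at least 1 on the log2 scale, and 2.5% were detected in 3 or more N1-CKO cells and in 0 WT cells. Of the ligand and fringe genes, Dll1, Dll3, Dll4 and Mfng were detected in at least 2 cells. Dll3 and Dll4 were the ones higher by at least 1, and none of the 4 differed by more than the larger SD, which 1.55% of all genes did. Counted by cells, Dll3, Dll4 and Mfng were detected in more N1-CKO than WT cells, as were 39.2% of all genes, and none of the 4 in fewer, as were 39%. So few members cannot be told apart from that background.

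RNA quality varied among the cells with Dll3. The Gapdh control has probe sets at both transcript ends, and the 3′ signal over the 5′ signal increases as cDNA gets shorter. This Gapdh ratio was 5.16 in N1-CKO cell 4 and 245 in cell 5, against 1.40 to 3.26 in WT cells. The same ratio of the Actb control was 18.3 in cell 4 and 3.08 in cell 5, within the WT range of 1.41 to 54.8. Among the 8 N1-CKO and 11 WT cells with values no higher than 3, Dll3 remained detected in N1-CKO cell 9 alone, and the log2 difference was 2.53. The 18S ribosomal RNA control splits the arrays into a bright set of 5 N1-CKO and 5 WT cells and a dim set of 8 and 8, and the Dll3 difference was 1.97 in the bright set and 3.45 in the dim set. What part RNA quality has in the number of detected cells was not tested.

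The stretches before the start sites of Dll1 and Dll3 are shown because both genes are Delta genes of the proneural pathway and were detected in the same N1-CKO cells. Each is the 250 bases before a RefSeq start (GRCm38.p6), written 5′ to 3′ on the gene's own strand. Capitals mark matches to the E-box CANNTG, the motif that proneural factors bind with their partners. Dll1 has 2 start sites in the table, at chr17:15375824-15376073 and chr17:15376933-15377182, and Dll3 has 1 at chr7:28301786-28302035, all on the minus strand.
Dll1 start 1: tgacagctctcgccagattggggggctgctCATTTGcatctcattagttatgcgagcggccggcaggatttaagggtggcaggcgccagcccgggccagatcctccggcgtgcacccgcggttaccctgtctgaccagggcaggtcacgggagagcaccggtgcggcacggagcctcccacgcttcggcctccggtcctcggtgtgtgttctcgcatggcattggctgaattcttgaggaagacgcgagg
Dll1 start 2: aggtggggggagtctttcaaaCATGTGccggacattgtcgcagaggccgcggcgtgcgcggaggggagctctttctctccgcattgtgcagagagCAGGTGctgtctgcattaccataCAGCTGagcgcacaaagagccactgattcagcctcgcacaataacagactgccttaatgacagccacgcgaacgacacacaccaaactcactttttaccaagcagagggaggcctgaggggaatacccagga
Dll3: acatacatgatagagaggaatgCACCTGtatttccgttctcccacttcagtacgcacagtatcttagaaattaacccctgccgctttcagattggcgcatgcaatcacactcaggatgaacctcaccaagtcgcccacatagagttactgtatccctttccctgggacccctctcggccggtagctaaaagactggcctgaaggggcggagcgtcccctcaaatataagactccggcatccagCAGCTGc
The first Dll1 stretch holds 1 E-box, the second holds 3 and the Dll3 stretch holds 2, of which the last, CAGCTG, begins 7 bases before the start. Of 32851 promoter windows of this length, 66.2% hold at least 1 E-box, 31.8% at least 2 and 12.2% at least 3, so these matches are common letters and say nothing of binding. Neither the N-box CACNAG, which Hes proteins bind, nor TGGGAA, the core letters bound by Rbpj, is found on either strand of these stretches. The motifs are in 36.7% and 21.6% of all windows, and their lack in these letters says nothing of the factors.

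Dll4, the Delta ligand of newborn retinal neurons and also of sprouting blood vessels, was detected in 3 N1-CKO cells and 1 WT cell. Its signal (1421826_at) ran between 11.6 and 3965 (median 55.1) in N1-CKO cells and between 4.26 and 497 (median 26.3) in WT cells. The bright cells were N1-CKO cell 11 at 3965, cell 9 at 3869 and cell 5 at 2098, and WT cell 9 at 497 against a threshold of 414. By signal, the 3 N1-CKO cells stood well above the WT cells. The other 10 N1-CKO cells, at 82.7 or less, lay within the WT range. Ranked within each array, 2 N1-CKO cells lay above the highest WT percentile of 92.2, and cell 5 at 91.9 lay below it. Mean log2 level was 6.81 ± 2.82 in N1-CKO cells and 5.62 ± 1.41 in WT cells (SD, n = 13 each), a difference of 1.19.

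A second Dll4 probe set (1421827_at) was detected in the same 3 N1-CKO cells, with 3603 in cell 11, 2917 in cell 5 and 1401 in cell 9, and in no WT cell. Over the 26 cells the probe sets correlated with r = 0.77, and the second gave a log2 difference of 1.39. Endothelial cells are a known Dll4 source, and of 8 endothelial markers 7 were detected in no cell, among them the defining genes Pecam1, Cdh5, Tek and Tie1. Kdr, which retinal progenitors also express, was detected in none of the 4 Dll4 cells. Averaged over the 8 markers, log2 level per cell was 4.79 to 6.37 in N1-CKO cells and 4.71 to 6.98 in WT cells. Of the microglial and astrocyte markers, C1qa was detected in WT cell 10 and Gfap in WT cell 13, and no other marker of these lists in any cell.

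The Jagged genes were nearly silent by this measure. Jag1, a ligand of the ciliary body and of later glia, was detected in 0 of 26 cells by any of 3 probe sets, and its highest signals were 289 in N1-CKO cells and 271 in WT cells. Its log2 differences were -0.52, 0.09 and 0.08 by the 3 probe sets, with no common sign. Jag2 (1426431_at) reached 47085 in N1-CKO cell 10, at the 99.1 percentile of that array, and at most 291 in any other cell. The other Jag2 probe set (1426430_at) had a signal of 125 in that same cell, so the bright value rests on 1 probe set in 1 cell. The Jag2 log2 difference was 0.55 with that cell and -0.19 without it.

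Mfng, the fringe that like Lfng extends O-fucose on Notch, was detected in 5 N1-CKO and 4 WT cells. Its signal (1416992_at) ran between 3.39 and 36834 (median 33.1) in N1-CKO cells and between 4.64 and 7559 (median 248) in WT cells. The bright N1-CKO cells were cell 8 at 36834, cell 1 at 9069, cell 4 at 5723, cell 9 at 5655 and cell 5 at 2682. The bright WT cells were cell 8 at 7559, cell 6 at 5017, cell 1 at 2773 and cell 5 at 2719. The groups overlapped through most of their range. Mean log2 level was 7.95 ± 4.18 in N1-CKO cells and 8.08 ± 3.09 in WT cells (SD, n = 13 each), a difference of -0.13. The value depended on the processing: it was 0.08 after quantile normalization and -2.90 when medians replaced means.

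Dll1 was found in cells that also carried Mfng. All 6 cells with Dll1 also had Mfng, while Mfng was detected in 3 of the 20 cells without Dll1, which were N1-CKO cells 1 and 8 and WT cell 1. N1-CKO cell 1 is the cell whose Dll1 signal fell just under its threshold. With 1 common signal threshold for all arrays, that cell joined the others, and 7 of 7 Dll1 cells had Mfng. With detection at the 95th percentile, 1 of 2 Dll1 cells had it. This pairing was picked out after the values were seen. Among the 421 genes detected in as many cells as Mfng, which is 9, Mfng was the 1 gene present in every Dll1 cell (0.238%). Of all 8280 genes detected in at least 2 cells, many of them in far more cells, 4.32% were present in every Dll1 cell.

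Levels of Dll1 and Mfng varied together across cells as well. Pearson's r of log2 level was 0.72 over 26 cells, 0.70 within N1-CKO cells and 0.76 within WT cells. Among 6129 genes detected in at least 4 cells, Mfng ranked 2 in likeness to Dll1, after E2f4 (r = 0.73), and Dll1 ranked 1 in likeness to Mfng, where the median gene had r = 0.02. Because array brightness and the 18S control are shared by all genes of a cell, the value was also taken within the 18S sets, where r was 0.52 over the 10 bright and 0.84 over the 16 dim arrays. All Dll1 cells carried Mfng in both sets, 2 of 2 and 4 of 4. Other genes most like Dll1 were Inppl1 and Kpna6, each with r = 0.68, and those most like Mfng were Txnip and Rrs1, each with r = 0.71, and E2f4 with r = 0.66.

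**Figure D2:**
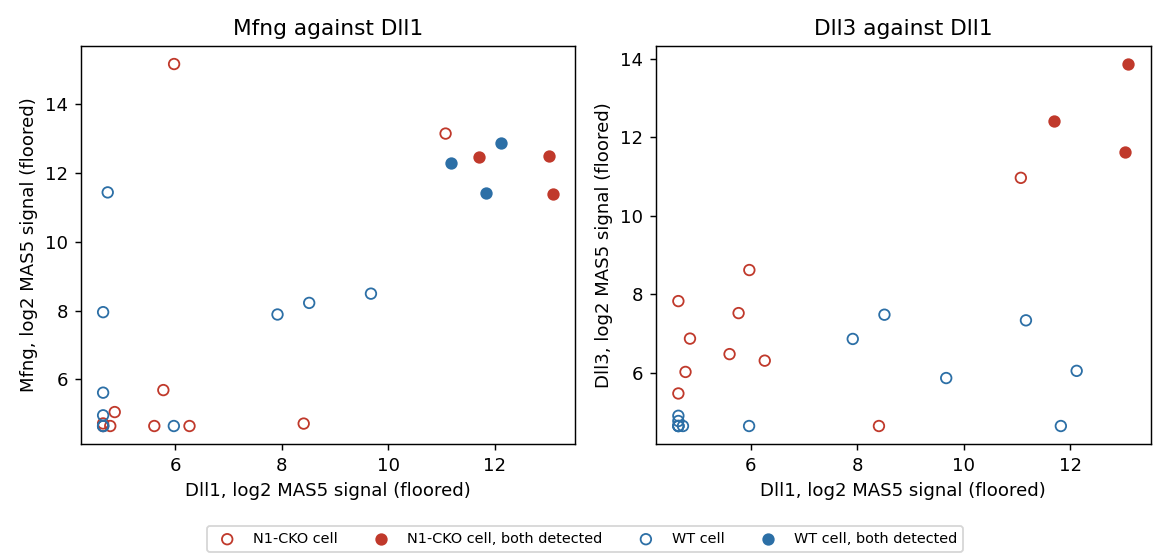
Log2 MAS5 signal of Mfng (left panel) and Dll3 (right panel) against that of Dll1 (x axes) in each N1-CKO cell (red) and WT cell (blue), with filled points where both transcripts were detected. The 6 Dll1 cells all lie high on the Mfng axis in both groups, whereas only the 3 N1-CKO cells among them lie high on the Dll3 axis.

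Dll3 was nested within the Dll1 cells. Its 3 cells, N1-CKO cells 4, 5 and 9, were exactly the N1-CKO cells with Dll1, and WT Dll1 cells 5, 6 and 8 had Dll3 signals of 12.0, 162 and 66.3, none of them detected. N1-CKO cells 5 and 9 carried Dll1, Dll3, Dll4 and Mfng at once, the largest number of members in any cell. No WT cell carried more than Dll1 and Mfng together. The r between Dll1 and Dll3 was 0.63 over all cells, 0.84 within N1-CKO cells and 0.59 within WT cells, although the WT value rests on signals below detection. Dll3 and Dll4 had r = 0.59, while Dll1 and Dll4 had r = 0.30 and Dll4 and Mfng r = 0.19. Dll3 and Mfng had r = 0.56. The genes most like Dll4 were Mpp3 and Slc19a1, each with r = 0.60, and Eef1a1 with r = 0.59.

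**Figure D3:**
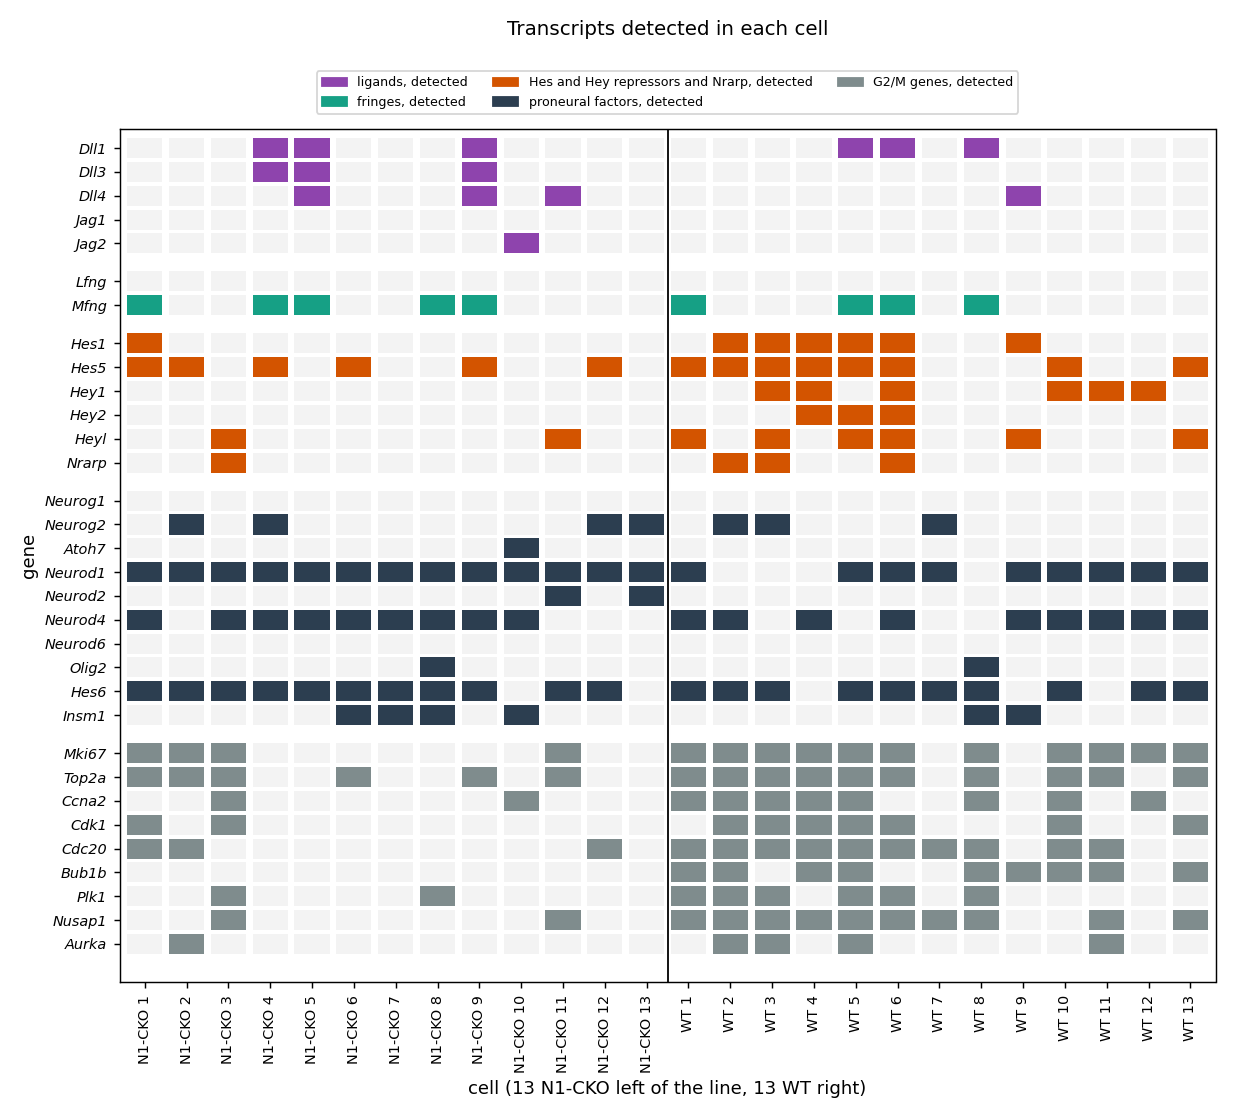
Detected transcripts (filled cells) of ligands, fringes, Hes, Hey and Nrarp, proneural factors and G2/M genes (rows) in each N1-CKO cell (left of the line) and WT cell (right). Every column with Dll1 also holds Mfng, and the G2/M block of the Dll1 columns is nearly empty in N1-CKO cells and mostly filled in WT cells.

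Transcripts of the Notch response were found both in ligand cells and in cells without a ligand. Of the Hes1, Hes5, Hey1, Hey2, Heyl and Nrarp list, at least 1 was detected in 3 of 5 N1-CKO and 3 of 4 WT ligand cells, and over both groups in 6 of 9 ligand cells and 13 of 17 cells without a ligand. With detection at the 95th percentile, 1 N1-CKO and 0 WT ligand cells kept such a transcript. At the 90th, ligand and repressor transcripts did not exclude each other in these cells. In N1-CKO ligand cells the response was thin: cells 4 and 9 had Hes5, cell 11 had Heyl, and cells 5 and 10 had none of the 6 genes. In WT ligand cells it varied, with all 6 genes in cell 6, Hes1, Hes5, Hey2 and Heyl in cell 5, Hes1 and Heyl in cell 9, and none in cell 8.

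The ranges were similar outside the ligand cells. Cells without a ligand had 0 to 2 of the 6 transcripts in the N1-CKO group and 0 to 5 in the WT group. Over all cells, all 6 genes had lower mean levels in N1-CKO cells, with differences of -3.02 for Hey1, -2.96 for Hes1, -2.10 for Hey2 and -1.97 for Hes5, and a list median of -2.03. Of all 8280 genes, 22.3% were lower by at least 1, and their median difference was -0.04. This direction did not hold for every gene over the bright 18S arrays, where Heyl and Nrarp were higher in N1-CKO cells and the list median was -0.03, against -3.40 over the dim arrays. Between these sets the median of all genes moved as well, 0.18 over the bright and -0.15 over the dim arrays. Hes1 was the 1 gene of the list to differ by more than the larger SD. Across cells, the list's mean level had r = 0.17 with Dll1 and with Mfng, -0.27 with Dll3 and -0.26 with Dll4, all weak.

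At least 1 gene of the proneural list, which also holds Hes6 and Insm1, was detected in every cell. Presence of any such gene therefore does not mark the ligand cells. In WT cell 8, a Dll1 cell, the detected genes of the list were Olig2, Hes6 and Insm1, with no Neurog or Neurod gene. Neurod1, which drives photoreceptor and amacrine genes, was detected in 8 of 9 ligand cells and 14 of 17 others. Neurod4, which acts with it in amacrine cells, was detected in 6 of 9 and 12 of 17, and Hes6, an antagonist of Hes1, in 7 of 9 and 14 of 17. Neurog2, a direct activator of Delta genes, was detected in 1 of 9 ligand cells, N1-CKO cell 4, and in 6 of 17 others. Hes6 was present in 6 of 6 Dll1 cells and in 9 of 9 Mfng cells, but also in 21 of all 26 cells. Insm1, a zinc finger factor of newborn neurons, was found in 3 of 9 ligand cells and 3 of 17 others. Atoh7 was seen in N1-CKO cell 10 alone, the Jag2 cell, and Olig2 in N1-CKO cell 8 and WT cell 8, both of them Mfng cells.

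By level over all 26 cells, Dll3 was the member most like the proneural list, an order that did not hold within the groups. The mean level of the 10 measured proneural factors had r = 0.57 with Dll3, a value that 0.374% of 8280 genes reached. Those genes include the list's own detected factors, which are part of the mean. The median gene had r = 0.01. Within N1-CKO cells r was 0.53, and within WT cells, where Dll3 was not detected, it was 0.33. It was 0.66 over the bright and 0.56 over the dim 18S arrays. The list had r = 0.41 with Mfng, 0.38 with Dll4 and 0.35 with Dll1. Within N1-CKO cells it had r = 0.56 with Mfng and 0.53 with Dll1, as high as with Dll3, and within WT cells r was highest with Jag1 (0.43), which was detected in no cell. All 7 proneural factors detected in at least 2 cells had higher mean levels in N1-CKO cells, with a list median of 0.65, led by Neurod1 (2.67), Hes6 (0.93), Neurod4 (0.73) and Neurog2 (0.65), and Neurod1 alone was higher by at least 1. Of all 8280 genes 4015 had higher means in N1-CKO cells, and the share higher by at least 1, 19.1%, is near the 1 of 7 here. Olig2 was lower over the bright 18S arrays and Insm1 was lower with no floor, and the list median lay between 0.41 and 0.84 over these and the other settings tried.

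The Dll1 cells of the groups carried different numbers of cell cycle transcripts. Of 9 measured G2/M genes, which are made as cells prepare to divide, N1-CKO Dll1 cells 4, 5 and 9 had 0, 0 and 1 detected, and WT Dll1 cells 5, 6 and 8 had 9, 6 and 7. The groups as a whole differed in the same way: N1-CKO cells had 0 to 6 of the genes (median 1) and WT cells 1 to 9 (median 6). All 9 genes had mean levels lower by at least 1 in N1-CKO cells, against 22.3% of all 8280 genes. The list median was -3.45, although over the bright 18S arrays Plk1 was higher. Beyond the larger SD were 3 of the 9, against 1.55% of all genes. The Gapdh ratio was 5.16, 245 and 2.53 in N1-CKO Dll1 cells 4, 5 and 9 and 1.57, 1.40 and 1.66 in WT Dll1 cells 5, 6 and 8. In the same order, the Actb ratio was 18.3, 3.08 and 1.43, and 2.07, 3.29 and 3.33. The part of RNA quality in the G2/M counts was not tested. The WT cell with Dll4, cell 9, had 1 G2/M gene, and N1-CKO Dll4 cells 5, 9 and 11 had 0, 1 and 3. Otx2, the factor that starts photoreceptor and bipolar fates, was detected in 4 of 4 Dll4 cells and in 18 of all 26 cells. Among Dll1 cells it was detected in 3 of 3 N1-CKO and 1 of 3 WT cells, and among all cells in 11 of 13 and 7 of 13. Of the other photoreceptor markers, Crx and Nrl were detected in N1-CKO Dll1 cells 4 and 9 and WT Dll1 cell 6. Prdm1 was detected in N1-CKO Dll1 cells 4, 5 and 9, Gngt2 in N1-CKO Dll1 cell 4, and Rcvrn in no cell.

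Lfng, the fringe of dividing progenitors in many tissues, reached detection in 0 of 26 cells. WT cells 8 (355, threshold 396) and 11 (559, threshold 683) came nearest. Its signal (1420643_at) ran between 1.12 and 599 (median 17.3) in N1-CKO cells and between 9.20 and 820 (median 310.5) in WT cells. The values fall into dim and brighter cells, and a limit of 200, chosen after the values were seen, separates them. Above it were 3 of 13 N1-CKO cells, which were cell 3 at 599, cell 10 at 434 and cell 8 at 203, and 8 of 13 WT cells, at 292 to 820. The remaining N1-CKO cells were at 77 or less and the remaining WT cells at 21 or less, so both groups held both kinds of cell. This split rests on 1 probe set and on signals below detection. By the other one (1449943_at), N1-CKO cell 10 at 576 and WT cell 3 at 293 were the cells above 200. WT cells 1, 4 and 11 were then at 6, 31 and 40, and N1-CKO cell 8 at 9. The 8 brighter WT cells lay between the 80.2 and 89.6 percentile of their arrays. By rank the count was similar, with N1-CKO cells 2 and 3 and the same 8 WT cells above the 80th percentile of their own arrays, although N1-CKO cells 8 and 10 were then below it.

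The mean log2 level of Lfng was 5.77 ± 1.70 in N1-CKO cells and 7.25 ± 2.19 in WT cells (SD, n = 13 each), a difference of -1.47 that is smaller than the larger SD. Among all 18193 genes, 11.1% were lower in N1-CKO cells by at least 1. The second probe set (1449943_at) differed by -0.27 and correlated with the first by r = 0.63. The direction also depended on the array set: the difference was 0.69 over the bright 18S arrays, -2.82 over the dim ones and -0.98 under the limit of 3 on the Gapdh ratio. The lower mean of N1-CKO cells was thus seen over the dim and not over the bright arrays, and the part of 18S in it was not tested.

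**Figure D4:**
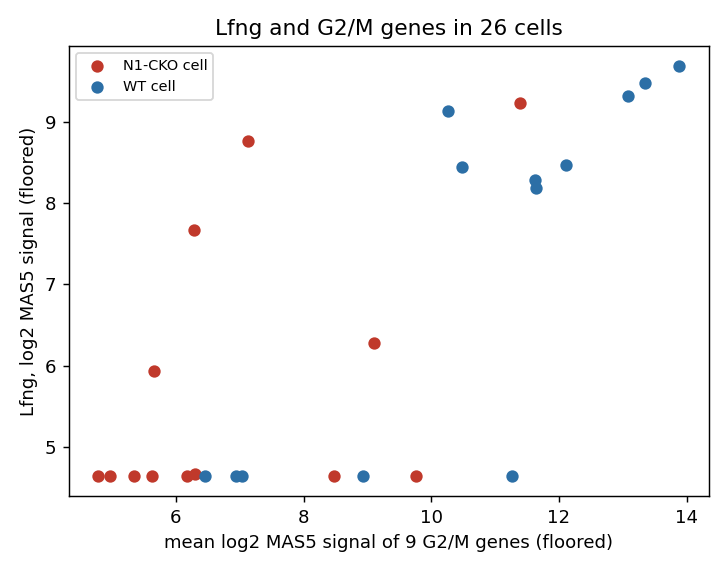
Log2 MAS5 signal of Lfng (y axis, probe set 1420643_at) against the mean log2 signal of 9 G2/M genes (x axis) in each N1-CKO cell (red) and WT cell (blue). The 8 WT cells with brighter Lfng sit to the right with high G2/M levels, and most N1-CKO cells sit at lower left, with 2 of them bright for Lfng at low G2/M level.

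By probe set 1420643_at, whose signals were below detection in all cells, Lfng varied with the G2/M genes between cells. The 8 WT cells with Lfng above 200 had 6 to 9 of the 9 G2/M genes detected, and the other WT cells, which were cells 7, 9, 10, 12 and 13, had 2, 1, 6, 2 and 5. In N1-CKO cells the match was looser, with 6 G2/M genes in cell 3 but 1 each in cells 8 and 10. By the other probe set (1449943_at), the cells above 200 were N1-CKO cell 10, with 1 G2/M gene, and WT cell 3, with 8. WT cells 1, 4 and 11, with 7, 7 and 6 such genes, were then at 6, 31 and 40. WT cells 2, 5, 6 and 8, with 9, 9, 6 and 7, were at 90 to 189. The r values below rest on the first probe set. Between Lfng and the mean G2/M level r was 0.73 over 26 cells, 0.48 within N1-CKO cells and 0.83 within WT cells. A value as high as 0.73 over 26 cells was reached by 0.507% of 8280 genes, which include the 9 G2/M genes themselves, and the median gene had r = 0.05. It was 0.41 over the bright and 0.89 over the dim 18S arrays.

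By the same probe set, and with signals below detection, Lfng also went with the Notch response genes. Its r with the mean of the Hes, Hey and Nrarp list was 0.61 over all cells, 0.42 within N1-CKO cells and 0.59 within WT cells, with Nrarp (r = 0.72), which limits the response as a feedback inhibitor, and Hey2 (r = 0.60) the most alike. Over the bright 18S arrays it was -0.05 and over the dim ones 0.87. With the Delta genes Lfng had r = -0.42 (Dll3), -0.37 (Dll4) and 0.08 (Dll1), and with Neurod1 r = -0.49. The fringes themselves, Mfng and Lfng, had r = 0.17.

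The stretch before the Lfng start is shown because Lfng is a known Notch target in other tissues and was the member closest to the Notch response list here. It lies at chr5:140607091-140607340 (GRCm38.p6, plus strand), and capitals mark E-boxes, N-boxes and TGGGAA, on either strand.
Lfng: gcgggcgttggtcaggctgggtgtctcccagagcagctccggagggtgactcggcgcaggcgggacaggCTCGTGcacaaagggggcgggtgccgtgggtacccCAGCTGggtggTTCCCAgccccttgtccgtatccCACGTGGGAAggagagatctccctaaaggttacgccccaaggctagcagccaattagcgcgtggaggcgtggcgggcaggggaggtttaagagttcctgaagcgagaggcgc
It holds 2 E-boxes, 1 N-box read on the other strand, and TGGGAA once on each strand. The second E-box and the second Rbpj match share letters within CACGTGGGAA. At least 2 matches to TGGGAA are found in 2.77% of the 32851 windows. Of the other members, Dll4 has 1 N-box, Jag1 has 1 E-box and Jag2 has no match to the 3 motifs in the same window. These are matches of letters, and no binding was measured.

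Genes that act on ligands or on receptor sugars ranged between 0 cells for Neurl1a and 14 cells for Mib1 and Mib2. Of 11 such genes, 8 were detected in at least 2 cells, 6 with higher and 2 with lower mean levels in N1-CKO cells, and their median difference was 0.61. Pofut1 turned lower over the bright 18S arrays, and Mib2 and Rfng over the dim ones, where the median was 0.10. Poglut1, which adds O-glucose to Notch, was detected in 6 N1-CKO cells and 1 WT cell, with a difference of 2.05. Dner, a Notch-binding protein of neurons, differed by 1.44, the ubiquitin ligase Neurl1b by -1.69 and the adhesion protein Cntn1 by -1.66. None of the 8 differed by more than the larger SD, which 1.55% of all genes did. Higher means were found for 4015 of all 8280 genes. By at least 1, 2 of the 8 were higher and 2 lower, against 19.1% and 22.3% of the 8280. Mib1, the ubiquitin ligase that starts ligand endocytosis, was detected in 8 N1-CKO and 6 WT cells, and in 4 of 9 ligand cells against 10 of 17 others. Rfng, the third mammalian fringe, was detected in 9 N1-CKO and 4 WT cells, in 3 of 9 ligand cells against 10 of 17 others.

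On the receiving side, of 7 measured receptor and nuclear complex genes, 4 were detected in at least 2 cells. By at least 1, 3 of the 4 were lower and 1 higher in N1-CKO cells, against 22.3% and 19.1% of all 8280 genes. The receptors Notch1 (-1.65) and Notch2 (-1.81) and the DNA-binding partner Rbpj (-1.64) had lower mean levels in N1-CKO cells, and the coactivator Maml1 a higher one (1.03), none beyond the larger SD. Notch1 was detected in 5 of 9 ligand cells and 13 of 17 others, so most cells, with or without a ligand transcript, carried transcript of this receptor.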

How the data were processed

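Single cells of mouse retina were profiled on Affymetrix arrays, 13 N1-CKO and 13 WT. Per the labels' protocols, cDNA was primed with oligo dT, tailed and amplified by PCR before labelling, which favours 3′ ends and can lose rare transcripts. The deposited values are linear intensity, made with MAS5 per the submitters' processing notes; the trimmed mean (2% off each end) was 500.0 on every array, so the values hold no total RNA per cell. No source used here gives the version of MAS5. Precision is limited by the number of arrays.

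Of 45101 probe sets, 64 controls and 932 with several gene symbols were left out, and 34945 had 1 symbol. For each gene the probe set brightest on average (log2) over 26 cells was used. Signals were floored at the pooled median, 25.02, and log2 was taken. Detection was the 90th percentile of each array (4504 probe sets per cell), which fixes how many probe sets pass and picks the brightest. Differences are mean log2 in N1-CKO minus WT cells and mix how many cells carry a transcript with its level, so they are no fold change within a cell. Pearson's r over cells is a description without p. Arrays were split at the largest gap of an 18S 5′ control probe set. The limit of 3 on the Gapdh ratio came from earlier results of these data.

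Genes named beyond the 7 are those of the pathway and marker lists, at most 4 per list with a difference, and the 3 genes most like each member detected in at least 4 cells. The members, lists and rules were chosen with earlier results of these data known. 1 planned item is not reported here. Bhlhe22, Maml3 and Ccnb1 are not analysed here, and Mfng has no promoter entry. Other detection limits, floors, normalizations and array sets were tried. The scripts, in Python 3.11.15 with numpy 2.4.6, pandas 2.3.3 and scipy 1.17.1, were tested on simulated data.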

Additional observations from a re-analysis of the deposited data

How the results depend on the processing

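Of 630 values recomputed for the main results, 596 kept their direction or stayed within the tolerance set. Lfng differed by 0.69 over the bright 18S arrays, against -1.47 over all, and the cause was not tested. With detection at the 80th percentile, ligand cells numbered 10 N1-CKO and 7 WT, of which 8 and 7 had a Hes, Hey or Nrarp transcript and 6 and 3 had Neurog2, and 10 WT cells had a fringe; Lfng was then detected in 2 N1-CKO and 8 WT cells, and 9 of 9 Dll1 cells had Mfng. At the 95th percentile 0 WT cells had a ligand and 2 a fringe, Hes, Hey or Nrarp was left in 1 N1-CKO and 0 WT ligand cells and Neurog2 in 0 N1-CKO ligand cells, and 1 of 2 Dll1 cells had Mfng. The bright 18S arrays alone, with fewer cells, held 3 N1-CKO and 2 WT ligand cells, 2 N1-CKO and 1 WT fringe cells, 1 WT ligand cell with a Hes, Hey or Nrarp transcript and 0 N1-CKO ligand cells with Neurog2. The dim ones held 2 N1-CKO and 2 WT ligand cells, 3 N1-CKO fringe cells and 1 N1-CKO ligand cell with a Hes, Hey or Nrarp transcript. Under the limit of 3 on the Gapdh ratio, the N1-CKO group kept 3 ligand cells, 3 fringe cells and 0 ligand cells with Neurog2. The r of Dll1 and Dll3 was 0.48 after quantile normalization, 0.43 over the bright 18S arrays and 0.46 with the Gapdh limit; that of Dll1 and Mfng was 0.52 and 0.84 over the bright and dim arrays, and that of Dll3 and Dll4 0.72 over the bright ones.

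Leaving out each cell in turn, the log2 difference ranged between -0.09 and 0.76 for Dll1, 2.43 and 3.19 for Dll3, 0.77 and 1.47 for Dll4, -0.73 and -0.33 for Jag1, -0.19 and 0.73 for Jag2, -1.76 and -1.27 for Lfng, and -0.73 and 0.27 for Mfng. Ligand cells numbered 4 to 5 in N1-CKO and 3 to 4 in WT, as did fringe cells, those with a Hes, Hey or Nrarp transcript 2 to 3 in each group, and those with Neurog2 0 (without N1-CKO cell 4) to 1 in N1-CKO and 0 in WT. The r of Dll1 and Mfng ranged between 0.69 and 0.83 (without N1-CKO cell 8), of Dll1 and Dll3 between 0.56 and 0.72, of Dll3 and Dll4 between 0.47 and 0.67, and of Dll3 and Mfng between 0.52 and 0.62. No paired analysis was possible because no result comes from a test and the numbers in the labels only name cells.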

Other observations

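Dll3 and Lfng did not reach the number of detected cells that the rule for naming like genes asks for, so the genes most like them were picked out after their values were seen. Most like Dll3 over 26 cells were Vxn (r = 0.76), detected in 6 N1-CKO and 0 WT cells, Klhdc8b (r = 0.74), detected in 4 and 0, and Fam53b (r = 0.73), detected in 8 and 1. Vxn, known in frog and mouse as a promoter of neuronal differentiation, was detected in all 3 Dll3 cells. Within N1-CKO cells r with Dll3 was 0.79 for Vxn and 0.76 for Fam53b, and within WT cells 0.02 and 0.19.

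Most like Lfng were Gli3 (r = 0.80), a transcription factor of the hedgehog pathway that was detected in 1 N1-CKO and 5 WT cells, Sema4d (r = 0.80), a semaphorin detected in 3 and 7, and Prss23 (r = 0.79), a serine protease detected in 2 and 4. Within N1-CKO cells these values were 0.64, 0.73 and 0.71, and within WT cells 0.83, 0.78 and 0.80.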
